A study of Mus musculus with 6 samples.

Results

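The genes described here encode the constitutive subunits of the 26S proteasome, the protease that degrades ubiquitin-tagged proteins in every mammalian cell. They were chosen by name, as 31 gene symbols for the 20S core and the 19S cap; the rule uses no measured value, but the list was drawn up with earlier results of these data known. Of these, 30 had a probe set (a group of array probes summarised to 1 value) annotated with a single gene symbol, 13 for the core and 17 for the cap, out of 22180 genes measured. The remaining symbol, Psma4, shares its probe sets with another gene symbol, so no value is given for it. The values come from 6 Affymetrix arrays of C2C12 cells, an established mouse myoblast line from ATCC that fuses into myotubes on serum withdrawal. In 3 arrays the cells had received a pool of siRNAs directed at Htt, which encodes mouse huntingtin, and in 3 arrays scramble siRNA, so both groups were transfected with siRNA. The labels call the Htt siRNA arrays knockout, while the protocol describes siRNA transfection with a commercial pool. The sources used here give neither the time after transfection nor whether the replicates were separate cultures, so p-values measure the spread between these arrays, which may be technical.

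The 20S core is a barrel of 4 stacked rings. The outer alpha rings gate its entrance, and the inner beta rings hold the proteolytic sites. The 19S cap binds the ubiquitin chain and removes it, and its ATPase ring unfolds the substrate and threads it into the core. Subunits are needed in fixed proportion, and in mammals the transcription factor NRF1, the product of Nfe2l1, raises many subunit genes together when proteasome activity is low, through antioxidant response elements in their promoters. In skeletal muscle the ubiquitin-proteasome system removes contractile proteins during atrophy, and proteasome function has long been studied in Huntington's disease, in which expanded huntingtin aggregates.

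The promoters of 25 of the 31 genes were found in a RefSeq table (build GRCm38.p6), as windows from 250 bases before to 50 bases after the annotated start. Of these genes, 4 (Psmb5, Psmb6, Psmc6 and Psmd12) held the core letters of the antioxidant response element, TGACNNNGC on either strand, which is 16% of them against 14.9% of 16990 measured genes with a window. The CCAAT box, searched as CCAAT on either strand, lay in 10 of 25 (40%) against 41.6% of those genes. These shares are close to those of all genes, and a match is a description of letters, not of a bound site. The windows below belong to Psma1, Psmd11 and Psmd14, which had 3 of the 4 smallest p among members with lower values, to Psmb3, the member with the highest log2 fold change, and to the catalytic subunits Psmb5 and Psmb6, whose matches to the response element begin 47 and 9 bases before the start. Capitals mark the response element or CCAAT letters; in Psmd14 the last 2 CCAAT matches, on opposite strands, overlap.
Psma1 promoter, chr7:114276067-114276366, minus strand: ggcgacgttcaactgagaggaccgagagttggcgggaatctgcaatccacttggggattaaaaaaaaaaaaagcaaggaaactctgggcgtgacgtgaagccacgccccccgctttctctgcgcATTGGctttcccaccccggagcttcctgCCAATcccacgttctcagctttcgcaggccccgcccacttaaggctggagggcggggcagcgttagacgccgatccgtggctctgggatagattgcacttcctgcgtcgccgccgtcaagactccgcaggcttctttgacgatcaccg
Psmd11 promoter, chr11:80428365-80428664, plus strand: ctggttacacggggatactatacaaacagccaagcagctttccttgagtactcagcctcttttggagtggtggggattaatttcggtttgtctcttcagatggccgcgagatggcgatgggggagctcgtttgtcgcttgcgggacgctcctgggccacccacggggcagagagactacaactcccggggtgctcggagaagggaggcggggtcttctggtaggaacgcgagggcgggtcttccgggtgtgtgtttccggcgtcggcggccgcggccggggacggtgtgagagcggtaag
Psmd14 promoter, chr2:61711444-61711743, plus strand: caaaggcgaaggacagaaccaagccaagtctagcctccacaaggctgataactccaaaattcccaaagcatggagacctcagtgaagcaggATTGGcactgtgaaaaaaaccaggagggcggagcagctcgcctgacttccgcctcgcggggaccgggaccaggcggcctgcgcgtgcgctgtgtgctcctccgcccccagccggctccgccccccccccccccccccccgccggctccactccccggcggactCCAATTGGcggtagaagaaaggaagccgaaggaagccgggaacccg
Psmb3 promoter, chr11:97703184-97703483, plus strand: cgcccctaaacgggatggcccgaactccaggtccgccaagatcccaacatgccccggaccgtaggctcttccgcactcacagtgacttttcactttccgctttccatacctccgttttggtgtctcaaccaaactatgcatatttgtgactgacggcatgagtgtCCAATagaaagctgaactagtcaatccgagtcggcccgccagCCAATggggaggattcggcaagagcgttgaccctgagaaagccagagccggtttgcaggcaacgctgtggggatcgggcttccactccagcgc
Psmb5 promoter, chr14:54617946-54618245, minus strand: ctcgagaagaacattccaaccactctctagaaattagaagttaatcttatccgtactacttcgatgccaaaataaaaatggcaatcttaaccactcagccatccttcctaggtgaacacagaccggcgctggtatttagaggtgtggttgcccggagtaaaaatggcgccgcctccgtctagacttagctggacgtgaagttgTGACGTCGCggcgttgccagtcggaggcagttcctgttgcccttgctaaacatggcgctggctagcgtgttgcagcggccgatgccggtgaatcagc
Psmb6 promoter, chr11:70525107-70525406, plus strand: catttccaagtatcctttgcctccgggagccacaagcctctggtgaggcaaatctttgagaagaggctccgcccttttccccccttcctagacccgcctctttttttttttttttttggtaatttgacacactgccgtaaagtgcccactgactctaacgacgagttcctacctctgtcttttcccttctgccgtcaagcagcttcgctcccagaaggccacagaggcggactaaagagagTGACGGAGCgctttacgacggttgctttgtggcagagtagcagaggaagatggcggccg

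The knockdown was present in each array labelled Htt siRNA. The log2 value of Htt averaged 4.54 ± 0.10 in Htt siRNA arrays and 5.64 ± 0.08 in scramble arrays (SD, n = 3 each), a log2 fold change of -1.10 ± 0.09 (moderated SE; limma adjusted p = 0.0559). Of 10 myoblast markers, 7 (Myod1, Myf5, Des, Cdh15, Ncam1, Vim and Itga7) averaged between 6.58 and 11.44 in Htt siRNA arrays and between 5.92 and 11.49 in scramble arrays, while Cav3, Myf6 and Pax7 lay between 2.44 and 3.18 in Htt siRNA arrays and between 2.30 and 3.25 in scramble arrays, near the median gene mean of 2.95. The 5 immune, 6 epithelial and 6 endothelial markers measured did not exceed 3.91 in Htt siRNA arrays or 4.30 in scramble arrays. Of 6 neuronal markers only Stmn2, a microtubule regulator, stood high, at 9.47 in Htt siRNA arrays and 9.34 in scramble arrays. The arrays also differed across the groups: the level of 23 stress response genes (the mean over genes of the log2 value after subtracting each gene's mean of 6 arrays) stood at 0.69, -1.18 and 0.79 for Htt siRNA, replicates 1 to 3, against 0.94, -0.80 and -0.44 for scramble, replicates 1 to 3.

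Proteasome subunit genes lay slightly lower after Htt siRNA, by amounts that no single gene carried past the test. Of the 30 members, 26 had a lower mean in Htt siRNA arrays (86.7%) and 4 a higher one, where 41.8% of all 22180 genes and 52.5% of the 11090 genes above the median level, to which all 30 members belong, had a lower mean. The median log2 fold change of the members was -0.12, against 0.03 over all genes and -0.01 above the median level. Single members ranged from -0.33 (Psma1) to 0.29 (Psmb3), with moderated standard errors between 0.08 and 0.17. All 30 confidence intervals (95%) lay between -0.64 and 0.53, so a halving or a doubling was outside each of them. Because RMA compresses weak signals, true changes of dim members may be larger than these values. This applies most to Psma5 and Psmb3, at percentiles 50.5 and 62.2 of the mean level over all genes. The other 28 members lay at percentile 81.4 or above. Most members are thus brighter than many genes above the median level, and the shares given for those genes are not matched to the members in level.

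Limma with Benjamini-Hochberg adjustment over all 22180 genes called 0 members, and 0% of all genes were called. The smallest adjusted p among the members was 0.400, for Psmd11. At an unadjusted p under 0.05, 4 members were lower (Psmd11, Psmd14, Psmd3 and Psma1), against 5.14% of all genes and 9.22% of genes above the median level. At the same threshold 1 was higher (Psmb3), against 5.72% of all genes and 656 of the 11090 genes above the median level. The groups did not overlap, with every Htt siRNA array below every scramble array, for 8 members, against 5.91% of all genes and 9.04% above the median level. They did so in the other direction for 1 member, against 10.1% of all genes and 791 of the 11090 genes above the median level. These counts rested on the arrays used. Leaving out a single Htt siRNA array gave 1 (replicate 1), 7 (replicate 2) or 1 (replicate 3) lower members in place of 4. The shares of all genes in these fits were 3.1%, 7.75% and 3.16%, in place of 5.14%. Leaving out replicate 2 or 3 of the scramble group gave 0, against 3.7% and 3.53% of all genes. The higher member dropped out of this count when the fit left out Htt siRNA replicate 2 or either of replicates 1 and 2 of the scramble group. In those fits 1731, 1200 and 717 of all 22180 genes were higher, against 1269 in the fit of all arrays.

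**Figure D1:**
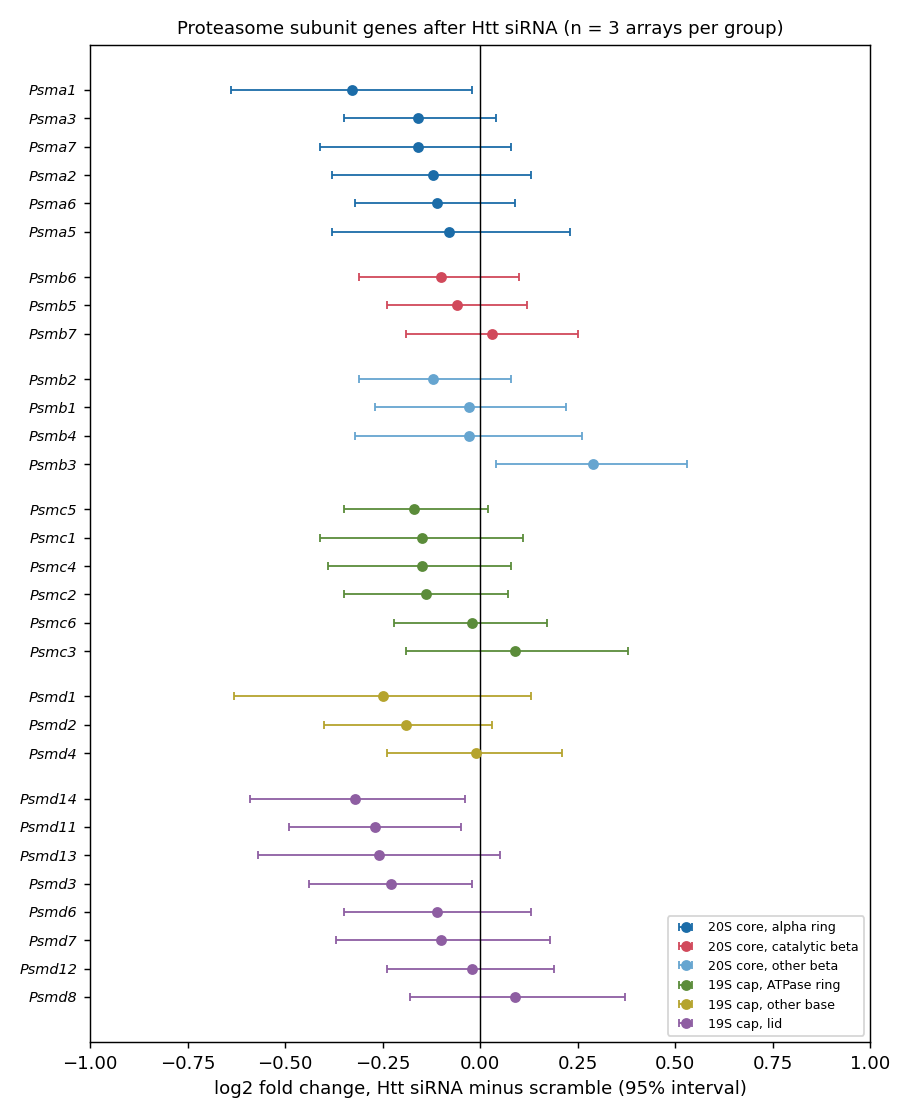
Log2 fold change of each of 30 proteasome subunit genes, Htt siRNA minus scramble, with its 95% confidence interval from limma (3 arrays per group), grouped by subcomplex. All 6 alpha ring genes lie left of 0, the beta ring genes lie around 0 with Psmb3 to the right at 0.29, and the largest shifts in the cap are in the lid genes Psmd14 and Psmd11.

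All 6 measured genes of the alpha ring of the core had lower means after Htt siRNA. Psma1 had log2 values of 7.24, 7.61 and 7.22 in Htt siRNA arrays, against 7.51, 7.76 and 7.79 in scramble arrays. Htt siRNA replicates 1 and 3 lay below all scramble arrays, and replicate 2 lay above scramble replicate 1. Its log2 fold change was -0.33 ± 0.13, which is 79.6% of the scramble level (unadjusted p = 0.0413, limma adjusted p = 0.441). Psma3, another subunit of the gate ring, had 8.66, 8.77 and 8.74 in Htt siRNA arrays and 8.83, 8.86 and 8.94 in scramble arrays. Its groups did not overlap, yet the gap was narrow and the log2 fold change was -0.16 ± 0.08 (limma adjusted p = 0.535). For Psma7 the values were 8.63, 8.82 and 8.51 in Htt siRNA arrays and 8.75, 8.90 and 8.80 in scramble arrays. Here Htt siRNA replicate 2 again lay inside the scramble range, with a log2 fold change of -0.16 ± 0.10 (limma adjusted p = 0.608).

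The other alpha subunits differed by less. Log2 fold changes were -0.12 ± 0.11 for Psma2, -0.11 ± 0.09 for Psma6 and -0.08 ± 0.13 for Psma5, and the groups overlapped for all of them. Psma5 averaged 2.93 in Htt siRNA arrays and 3.01 in scramble arrays, near the median gene mean of 2.95, where signal and background are hard to part. Its other probe set gave -0.07 but was dimmer still, with a mean of 2.18 over the 6 arrays. Across the 6 measured alpha genes the median log2 fold change was -0.14, with 1 gene lower at an unadjusted p under 0.05 and 1 with groups that did not overlap, beside 5.14% and 5.91% of all genes and 9.22% and 9.04% of genes above the median level.

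The catalytic subunits of the beta ring stayed within a narrow band. Psmb5, which carries the chymotrypsin-like site and is the target of bortezomib, had log2 values of 6.53, 6.54 and 6.55 in Htt siRNA arrays and 6.62, 6.63 and 6.54 in scramble arrays. These 6 values span 0.10, the least of any member, and the log2 fold change was -0.06 with a 95% confidence interval of -0.24 to 0.12. Psmb6, the caspase-like subunit, had 6.33, 6.35 and 6.49 in Htt siRNA arrays and 6.47, 6.44 and 6.59 in scramble arrays. The groups overlapped through Htt siRNA replicate 3, and the difference was -0.10 with an interval of -0.31 to 0.10. Psmb7, the trypsin-like subunit, had 7.78, 7.92 and 8.05 in Htt siRNA arrays, a range that encloses the 7.92, 7.89 and 7.85 of the scramble arrays. Its log2 fold change of 0.03 had an interval of -0.19 to 0.25. A change of the size seen for Psma1 (-0.33) lay outside all of these intervals, but shifts inside the interval of each gene were not excluded.

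Among the beta subunits without a proteolytic site, Psmb3 had the opposite sign to the others. Its log2 values were 4.20, 4.47 and 4.24 in Htt siRNA arrays and 4.0, 3.92 and 4.12 in scramble arrays. Every Htt siRNA array lay above every scramble array, with replicate 2 highest, and the log2 fold change was 0.29 ± 0.11, or 122% of the scramble level (unadjusted p = 0.0270, limma adjusted p = 0.416). The other such subunits gave -0.12 ± 0.08 for Psmb2, -0.03 ± 0.11 for Psmb1 and -0.03 ± 0.12 for Psmb4. Of these, only Psmb2 had groups that did not overlap, at 7.46, 7.51 and 7.46 in Htt siRNA arrays and 7.54, 7.55 and 7.69 in scramble arrays.

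In the cap, the lid held the members with the smallest p. The lid is the part that carries the deubiquitinase Psmd14, which cuts the ubiquitin chain off the substrate. Psmd14 had log2 values of 7.26, 7.39 and 6.98 in Htt siRNA arrays, against 7.52, 7.57 and 7.50 in scramble arrays. The groups did not overlap, and the Htt siRNA arrays spread more widely (SD 0.21) than the scramble arrays (SD 0.03). The log2 fold change was -0.32 ± 0.12, or 80.3% of the scramble level (unadjusted p = 0.0279, limma adjusted p = 0.416). Psmd11, a scaffold subunit that clamps the cap to the core, had 8.29, 8.52 and 8.26 in Htt siRNA arrays and 8.62, 8.64 and 8.62 in scramble arrays. All Htt siRNA arrays were lower, replicate 2 by the least, with a log2 fold change of -0.27 ± 0.10 (82.8% of the scramble level, unadjusted p = 0.0219, limma adjusted p = 0.400). Psmd3, a structural lid subunit, had 6.75, 6.86 and 6.88 in Htt siRNA arrays and 6.98, 7.04 and 7.15 in scramble arrays. It showed the same lack of overlap, at -0.23 ± 0.09 (unadjusted p = 0.0335, limma adjusted p = 0.429).

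The groups overlapped for each of the remaining lid genes. Psmd13 gave -0.26 ± 0.13, at 6.40, 6.84 and 6.57 in Htt siRNA arrays and 6.72, 6.85 and 7.02 in scramble arrays. The log2 fold change was -0.11 ± 0.10 for Psmd6, -0.10 ± 0.12 for Psmd7, the inactive partner of Psmd14, -0.02 ± 0.09 for Psmd12 and 0.09 ± 0.12 for Psmd8. Of the 8 lid genes 7 had a lower mean after Htt siRNA, beside 41.8% of all genes and 52.5% of genes above the median level. Their median was -0.17. Sem1, a small lid protein outside the member list, stood at -0.08 ± 0.23.

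**Figure D2:**
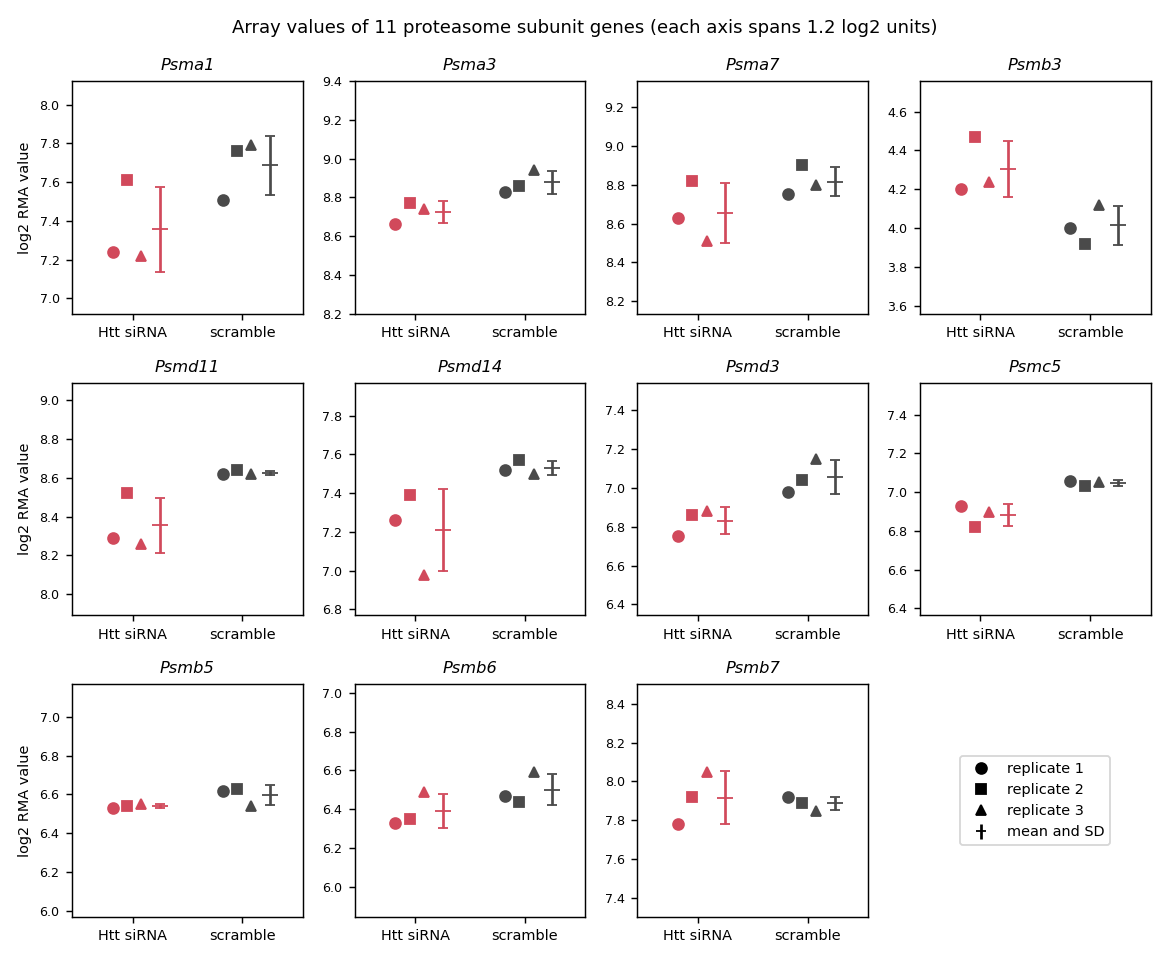
Log2 RMA value of 11 proteasome subunit genes in each array, Htt siRNA left and scramble right, with symbols for replicates and the mean and SD beside them. Psmd11, Psmd14, Psmd3, Psmc5 and Psma3 show no overlap with Htt siRNA lower, Psmb3 shows none with Htt siRNA higher, and Psmb5 and Psmb7 overlap.

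The ATPase ring and the rest of the cap base also lay slightly lower. Psmc5 had 6.93, 6.82 and 6.90 in Htt siRNA arrays and 7.06, 7.03 and 7.05 in scramble arrays. The groups were tight and did not overlap, and replicate 2 was the lowest array here, unlike in Psma1 or Psmd14. Its log2 fold change was -0.17 ± 0.08 (unadjusted p = 0.0705, limma adjusted p = 0.493). Psmc4 also had all Htt siRNA arrays lower (-0.15 ± 0.10), but barely so. Its highest Htt siRNA value was 7.96 and its lowest scramble value 7.97. Groups overlapped for Psmc1 (-0.15 ± 0.11), Psmc2 (-0.14 ± 0.09) and Psmc6 (-0.02 ± 0.08). Psmc3 was the ATPase with a higher mean (0.09 ± 0.12). Another probe set of Psmc2 gave -0.18, with groups that overlapped. Its values were 5.3, 5.8 and 6.2 in Htt siRNA arrays and 5.73, 5.77 and 6.35 in scramble arrays. In the rest of the base, the large scaffold Psmd2, which docks ubiquitin shuttle proteins, had groups that did not overlap (-0.19 ± 0.09). Psmd1, the other scaffold, gave -0.25 ± 0.17 and had the widest range of any member over the arrays, 0.73, with Htt siRNA replicate 3 lowest at 8.23. The ubiquitin receptor Psmd4 gave -0.01, with a 95% interval of -0.24 to 0.21.

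Set against each other, core and cap had these values. The mean log2 fold change was -0.08 over the 13 core genes and -0.13 over the 17 cap genes, and the level of the core minus that of the cap was 0.02, 0.02 and 0.04 in Htt siRNA arrays and -0.03, -0.06 and 0.00 in scramble arrays. Every Htt siRNA array lay above every scramble array in this measure, by a small margin, and the difference between the groups was 0.05. This difference is given without a test, since the genes were listed with earlier results of these data known. Psmb3, at 0.29 the highest of all members, raises the core mean, and the measure was not taken without it. With so small a margin, the separation of the arrays may rest on this gene. The median log2 fold change was -0.10 for the core and -0.15 for the cap. Within the core the 2 kinds of ring stood further apart than core and cap did: the level of the alpha ring was -0.15, 0.05 and -0.14 in Htt siRNA arrays and 0.00, 0.08 and 0.16 in scramble arrays, a difference of -0.16. The level of the beta ring was -0.05, 0.00 and 0.05 in Htt siRNA arrays and -0.01, -0.07 and 0.08 in scramble arrays, a difference of 0.00. Psmb3 raises this mean too, and the median log2 fold change of the 7 beta genes was -0.03. In the cap the difference was -0.15 for the lid, -0.15 for the 3 base genes without ATPase and -0.09 for the ATPases.

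The arrays of a group were unequal. The level of all 30 members stood at -0.11, 0.01 and -0.07 for Htt siRNA, replicates 1 to 3, and at 0.01, 0.03 and 0.12 for scramble, replicates 1 to 3, so Htt siRNA replicate 2 stood with scramble replicate 1. Htt siRNA replicate 1 was the lowest array for 14 of 30 members and Htt siRNA replicate 3 for 9, and scramble replicate 3 was the highest for 15. The level of 15 S phase genes was -1.07, 0.35 and -0.78 in Htt siRNA arrays and 0.18, 0.79 and 0.53 in scramble arrays, and that of 14 myotube genes was 1.14, 0.13 and 0.95 in Htt siRNA arrays and -0.63, -1.16 and -0.43 in scramble arrays. Htt siRNA replicate 2 thus lay nearest to the scramble arrays in the S phase, myotube and proteasome levels; the part of cell division and differentiation in the proteasome values was not tested. With the stress level as a covariate in limma, 4 members were lower and 1 higher at an unadjusted p under 0.05, against 6.79% and 7% of all genes. There 0 members and 0.537% of all genes passed the adjusted threshold, and the median of the members was -0.11. Without Htt siRNA replicate 2, the 7 lower members were Psma1, Psma7, Psmd1, Psmd2, Psmd11, Psmd13 and Psmd14, while 7.75% of all genes were lower at that unadjusted threshold. Again 0 members passed the adjusted threshold (smallest limma adjusted p = 0.109), which 2.43% of all genes passed. In such bulk samples, less of an RNA per cell and fewer cells that hold it cannot be told apart.

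**Figure D3:**
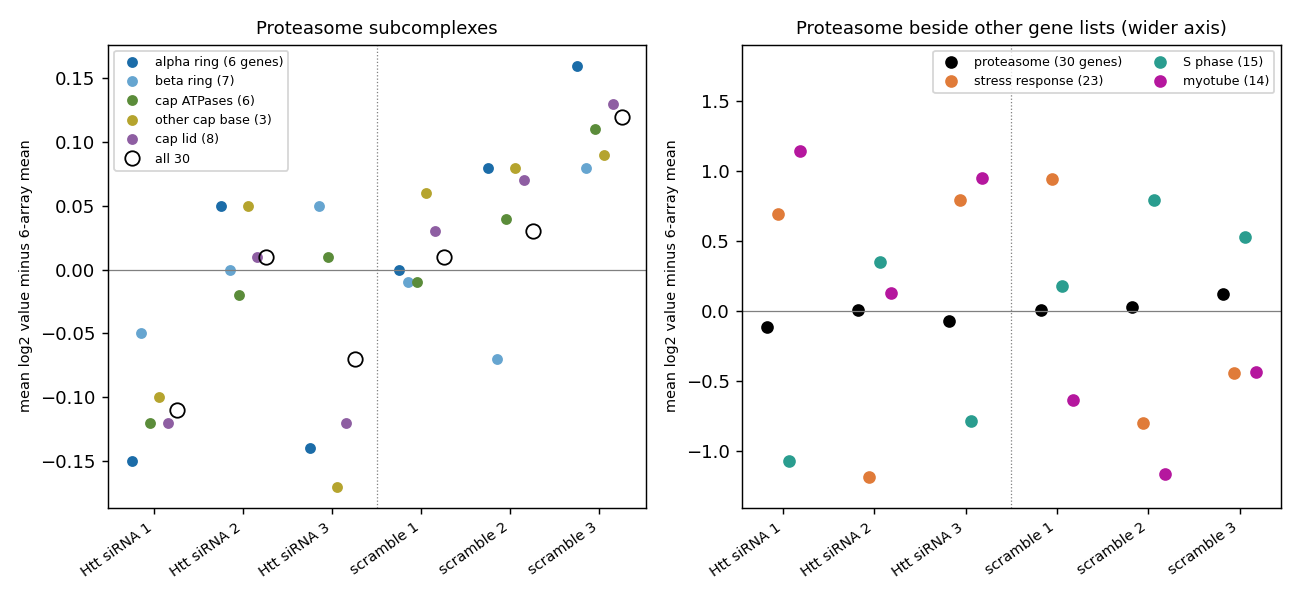
Level of gene lists in each array (mean over genes of the log2 value minus its 6-array mean); the left panel shows proteasome subcomplexes and the right panel, on a wider axis, all 30 proteasome genes beside stress response, S phase and myotube genes. The 30 proteasome genes span 0.22 over the arrays, the stress list 2.12, the S phase list 1.86 and the myotube list 2.30.

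The inducible subunits had higher means after Htt siRNA. Psmb8, Psmb9 and Psmb10 replace the catalytic beta subunits in the immunoproteasome, which interferon-gamma induces. Psmb8 had 3.23, 2.98 and 3.28 in Htt siRNA arrays and 2.87, 2.98 and 2.79 in scramble arrays, a log2 fold change of 0.29 ± 0.11 (unadjusted p = 0.0304, limma adjusted p = 0.421). Psmb9 gave 0.17 ± 0.09 and Psmb10 0.28 ± 0.16. The tissue-specific subunits gave 0.07 ± 0.15 (Psma8) and -0.02 ± 0.10 (Psmb11). Of all 5 specialised subunits 4 had higher means, against 58.2% of all genes and 47.5% of genes above the median level. The share of higher means was thus larger among dimmer genes, and Psmb9, Psma8 and Psmb11 lay at percentiles 27.5, 29.4 and 25.1. Of the 5, 0 passed the adjusted threshold. Psmb8 and Psmb9 averaged 3.17 and 2.31 in Htt siRNA arrays and 2.88 and 2.14 in scramble arrays. These values are near or below the median gene mean, where signal and background are hard to part. Psme1 and Psme2 form the interferon-inducible activator that can take the place of the cap. Psme2 had 4.36, 4.47 and 4.90 in Htt siRNA arrays and 4.07, 4.46 and 4.06 in scramble arrays (0.38 ± 0.17, limma adjusted p = 0.474), and Psme1 gave 0.15 ± 0.09. The other 3 genes of that list, the activators Psme3 and Psme4 and the inhibitor Psmf1, lay between -0.06 and -0.04.

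Most assembly chaperones also had lower means. Of 8 measured, 7 had lower means after Htt siRNA, with a median of -0.16, and 2 were lower at an unadjusted p under 0.05, beside 41.8% and 5.14% of all genes and 52.5% and 9.22% of genes above the median level. Psmd10, known as gankyrin, helps to assemble the ATPase ring and gave -0.28 ± 0.11, and Psmd5, another chaperone of that ring, gave -0.20 ± 0.09. Psmd5 had 7.85, 7.72 and 7.85 in Htt siRNA arrays, all below the 8.08, 7.96 and 7.97 of the scramble arrays, and its adjusted p was 0.459 in limma. Pomp, which helps beta subunits onto the alpha ring, gave -0.17 ± 0.18. Of 10 associated proteins measured 8 had lower means, beside 41.8% of all genes and 52.5% of genes above the median level, and 0 had an unadjusted p under 0.05. The deubiquitinases of the cap stood at -0.43 ± 0.24 (Uchl5) and -0.31 ± 0.17 (Usp14). Of 6 ubiquitin and ubiquitin-activation genes listed, only Uba6, an E1 enzyme, was measured by a probe set of its own. It had 7.06, 7.23 and 6.43 in Htt siRNA arrays and 7.42, 7.51 and 7.37 in scramble arrays, with Htt siRNA replicate 3 lowest, and a log2 fold change of -0.53 ± 0.19 (unadjusted p = 0.0274, limma adjusted p = 0.416).

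The transcription factor genes that control subunit expression did not separate the groups. Nfe2l1 had 7.72, 6.72 and 7.80 in Htt siRNA arrays and 7.76, 6.57 and 6.82 in scramble arrays. The high values were those of Htt siRNA replicates 1 and 3 and of scramble replicate 1, the arrays with a high stress level, so that the difference of 0.37 ± 0.37 was no larger than its error (limma adjusted p = 0.755). In those 3 arrays the level of the 30 subunit genes was -0.11, -0.07 and 0.01, and in the others it was 0.01 (Htt siRNA replicate 2), 0.03 and 0.12 (scramble replicates 2 and 3); a relation between them was not tested. Nfe2l2, which encodes NRF2, gave -0.04 ± 0.11 (limma adjusted p = 0.930). Of 4 regulators measured 0 had an unadjusted p under 0.05.

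**Figure D4:**
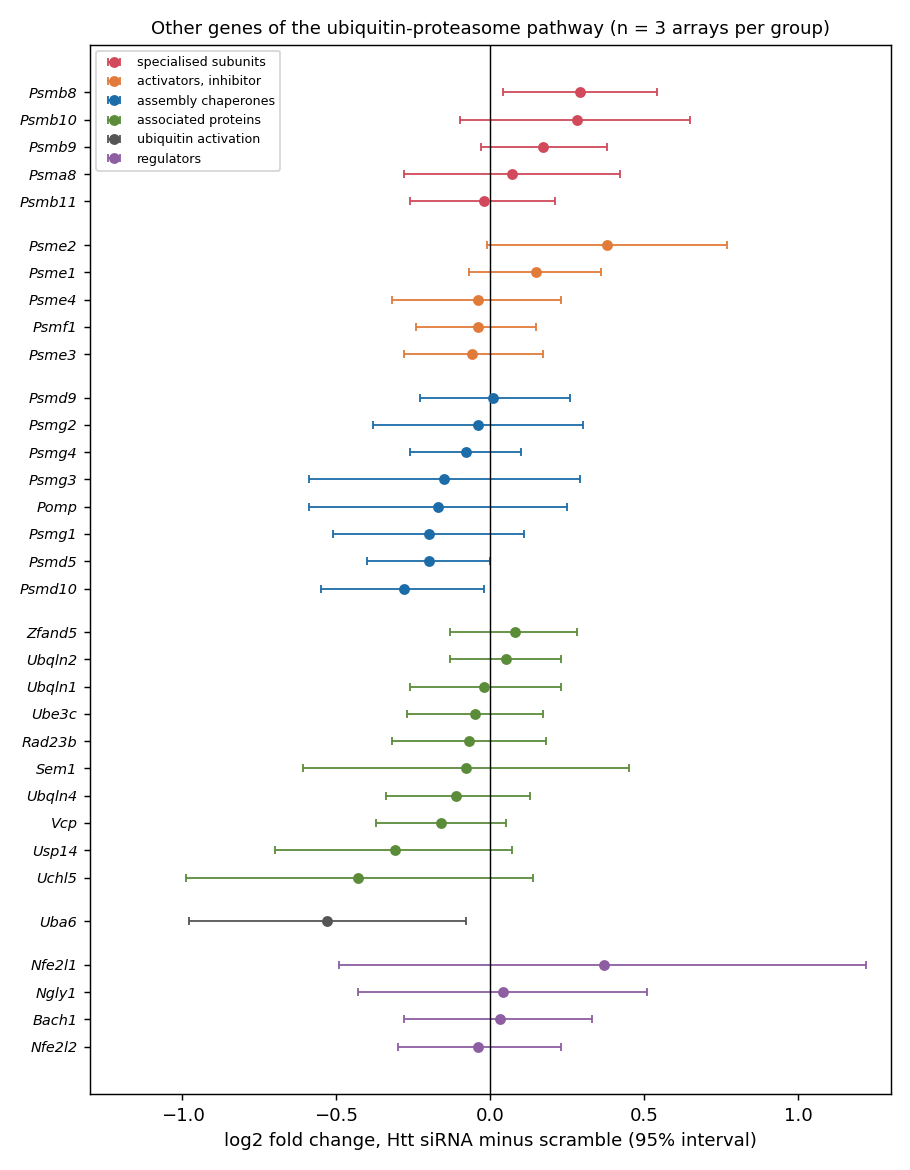
Log2 fold change of 33 other genes of the ubiquitin-proteasome pathway, Htt siRNA minus scramble, with 95% confidence intervals from limma (3 arrays per group). Psmb8, Psmb9, Psmb10, Psme1 and Psme2 lie right of 0, most assembly chaperones and associated proteins lie left of it, and Nfe2l1 has the widest interval.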

How the data were processed

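Total RNA of C2C12 cells was hybridised to 6 Affymetrix arrays, 3 per group, grouped by the labels' titles. The authors deposited log2 expression values for 41345 probe sets; per the submitters' processing notes these were made with RMA and the affy package (without versions or a genome build). RMA quantile-normalizes the arrays, which removes any change in total RNA per cell. Deposited values spanned 0.84 to 12.12, and array medians lay between 2.59 and 2.67. There are no counts, and precision is limited by the number of arrays.

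Of the probe sets, 23521 had 1 gene symbol, 1814 several, and 16010 were not listed in the platform annotation. The brightest probe set over the 6 arrays stood for each of 22180 genes. Limma 3.58.1 (lmFit, eBayes; R 4.3.3) tested Htt siRNA against scramble across all genes, two-sided, with Benjamini-Hochberg adjustment and a threshold of 0.05; the code was tested on simulated data. Log2 fold changes are followed by the moderated SE.

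Members and lists were chosen with earlier results of these data known. All members are named. Array values are given for the 4 core and 4 cap members with the smallest unadjusted p and for Psmb5, Psmb6 and Psmb7. Chosen after their values were seen, they are also given for Psmb2 and Psmd13, and in part for Psmc4. Of each other list, the 2 genes with the smallest p are named, with Nfe2l1, Nfe2l2, Psmb8, Psmb9, Psmb10 and Pomp; Sem1, Psma8, Psmb11, Psme3, Psme4 and Psmf1 were added after their values were seen. Alternatives were leaving out each array, the replicate number as a block, median centring, repeated quantile normalization, array weights, the mean of probe sets, a filter on dim genes, a stress covariate and a trended robust prior. Promoter windows are those of RefSeq, build GRCm38.p6.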

Additional observations from a re-analysis of the deposited data

How the results depend on the processing

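The median of the members kept its sign under all 14 alternatives, between -0.15 and -0.08, as did the core minus cap difference, between 0.04 and 0.07, and 0 members passed the adjusted threshold under any of them. None of the alternatives left out a member, so they do not show how far the core minus cap difference depends on Psmb3. The number of genes past it, 0 in the chosen fit (2409 had an unadjusted p under 0.05), ranged from 0 to 540 when 1 array was left out, with 540 when Htt siRNA replicate 2 was absent and 1 when scramble replicate 1 was; it was 98 with the replicate block, 3 with centred arrays, 3 with repeated quantile normalization, 1 with array weights, 3 above the median level, 119 with the stress level as a covariate and 4 with the trended robust prior. Members lower at an unadjusted p under 0.05 were 4 in the chosen fit, against 5.14% of all genes. They ranged from 0 to 7 when 1 array was left out, against 3.1% to 7.75% of all genes. They were 2 with repeated quantile normalization (4.27% of all genes) and 2 above the median level (7.62% of the 11090 genes tested). With the trended robust prior they were 3 (4.77%), with centred arrays 6 (6.61%) and with array weights 6 (6.69%). Under the other settings they were 4, against 6.67% with the replicate block, 5.14% with the mean of probe sets and 6.79% with the stress covariate. The higher member, Psmb3, ranged from 0 to 1 and was 0 with the trended robust prior. Centring moved all genes down by 0.03 and their split at an unadjusted p under 0.05 to 911 higher and 1465 lower, from 1269 and 1140. Signs turned for members near 0 when 1 array was left out: Psma5 lay between -0.17 and 0.03, Psmb7 between -0.03 and 0.10, Psmb1 between -0.13 and 0.03, Psmb4 between -0.10 and 0.09, Psmc6 between -0.05 and 0.01, Psmd4 between -0.07 and 0.06, Psmd7 between -0.16 and 0.002, Psmd8 between -0.002 and 0.15, and Psmd12 between -0.08 and 0.02. Repeated quantile normalization gave 0.02 for Psmb4 and 0.001 for Psmd4. The cause of these changes was not tested. With the replicate block 4 members were lower and 1 higher. Same-numbered arrays correlated at 0.35, 0.36 and 0.01 in their deviations from the group means. The values for replicates 1 and 2 were the highest between any arrays of the groups, while Htt siRNA replicate 3 correlated best with scramble replicate 1 (0.22). These values do not settle whether the numbers mark pairs, and the chosen fit did not pair them.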
